A study of Equus caballus with 8 samples.

Results

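Prostaglandins are lipid signals made from arachidonic acid, and the genes described here are those that make, inactivate and move them in the endometrium, the lining of the uterus. The 10 genes were chosen by symbol: the phospholipase PLA2G4A, the cyclooxygenases PTGS1 and PTGS2, the prostaglandin E synthases PTGES, PTGES2 and PTGES3, the prostacyclin synthase PTGIS, the inactivating dehydrogenase HPGD, and the transporters SLCO2A1 and ABCC4. All 10 matched a Gene ID among the 24942 of the count table, and all 10 were among the 15342 genes with enough reads to be tested. Endometrial biopsies came from 4 Bavarian Warmblood mares, each sampled once on Day 12 of pregnancy and once on Day 12 of the oestrous cycle, in random order, which gives 4 pregnant and 4 cyclic libraries in 4 pairs. In both states the mares ovulated after an injection of human chorionic gonadotropin (1500 IU). Biopsies were taken after flushing of the uterus, and pregnancy had been shown by ultrasound of the embryonic vesicle before flushing. The labels describe insemination for all mares and do not set the cyclic cycles apart in this. No other treatment, and no mare's age, is given for either group.

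Arachidonic acid is set free from membrane lipids by phospholipases A2, and the cyclooxygenases turn it into prostaglandin H2, from which terminal synthases make the individual prostaglandins. Prostaglandins act outside the cell, leave it partly through the exporter ABCC4, are taken up again by SLCO2A1 and are inactivated inside the cell by HPGD. In the mare, prostaglandin F2 alpha from the endometrium ends the life of the corpus luteum unless a conceptus is present, and the days around Day 12 belong to the period in which the conceptus prevents this.

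Libraries held 9812053 to 16703347 counts, and the pregnant library of mare 1 was the shallowest. Single genes of the 10 had 25 to 2955 counts in a library, so PTGS2 (25 to 96 counts), HPGD (49 to 139) and ABCC4 (56 to 150) were measured with the largest counting error. Levels are given as CPM, the counts of a gene relative to all counts of its library, scaled by the trimmed mean of M values. No transcript lengths were used here, so levels of different genes are not ranked. Of the epithelial markers that define the tissue, 21 of 23 listed were tested, with summed levels of 3350 to 4008 CPM in the cyclic and 3197 to 3437 CPM in the pregnant libraries. Stromal fibroblast markers (19 of 21 listed) summed to 4413 to 5874 and 5220 to 6112 CPM. COL1A1 (means of 1484 CPM in cyclic and 1283 CPM in pregnant libraries) and COL1A2 (1558 and 1351 CPM) weighed heavily in this sum. No matched marker in these lists was at 0 in every library.

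SLCO2A1, PTGIS, PLA2G4A and PTGS1 rose in pregnancy, by 2.38-fold, 1.56-fold, 1.69-fold and 1.48-fold, while PTGS2, the 3 prostaglandin E synthases, HPGD and ABCC4 did not pass the test. In a biopsy of whole tissue, more cells of a type and more RNA per cell cannot be told apart. In all, 4 of 10 genes rose and 0 fell at an adjusted p below 0.05 (edgeR quasi-likelihood test with the mare as a block, Benjamini-Hochberg adjustment over all genes), where 8.53% of all genes tested rose, 8.19% fell and 16.7% changed. The 10 genes were chosen with earlier results of these data known, so their count beside all genes is a description only. At an unadjusted p below 0.05 there were 6 genes higher and 0 lower, and DESeq2 and limma-voom also called 4 higher and 0 lower. In the model without the mare block 3 were called, where 2.54% of all genes were. The median log2 fold change was 0.38 over the 10 genes and 0.00422 over all genes tested. In 3 of the 10 genes, SLCO2A1, PTGIS and PLA2G4A, every pregnant library lay above every cyclic one, which held for 6% of all genes tested; the opposite order held for 0 of the 10 genes and 4.73% of all genes, and either order for 10.7%. In 5 of the 10 genes the 4 mares moved in 1 direction, as in 38.8% of all genes. Without mare 2, 2 of 10 genes rose, SLCO2A1 and PTGIS.

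**Figure D1:**
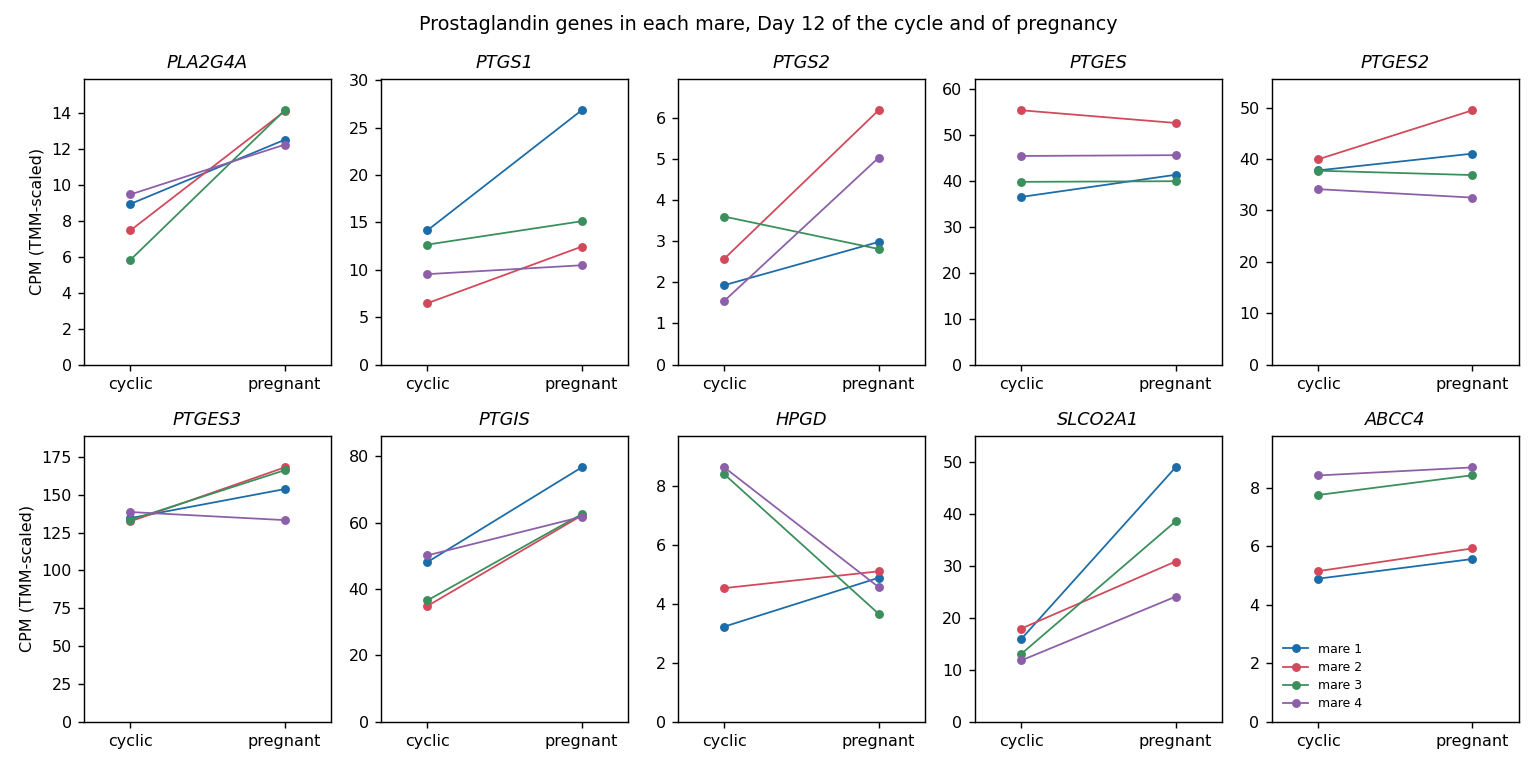
Level of each gene in CPM (vertical axis, from 0) in the cyclic and the pregnant library of each mare, with a line joining the libraries of 1 mare. Lines of SLCO2A1, PTGIS, PLA2G4A and PTGS1 climb in 4 of 4 mares, those of PTGES and ABCC4 run nearly flat, and those of HPGD cross.

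Release of arachidonic acid is the first step. PLA2G4A (Gene ID 100033889), the cytosolic phospholipase A2 that prefers arachidonate, stood at 8.95, 7.48, 5.84 and 9.48 CPM in the cyclic libraries of mares 1 to 4. The pregnant libraries of the same mares had 12.5, 14.1, 14.2 and 12.3 CPM. Its lowest pregnant level was above its highest cyclic level, and the pregnant libraries were close to each other. The log2 fold change was 0.76 ± 0.16 (SE; adjusted p = 0.0110, edgeR), with ratios of 1.39, 1.87, 2.40 and 1.29 in mares 1 to 4. Because the pregnant libraries were so close, the ratios largely mirrored the cyclic levels, and mare 3, with the lowest cyclic level, had the largest ratio. Without mare 2 the log2 fold change was 0.70 and missed the threshold (adjusted p = 0.0547).

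Cyclooxygenases carry out the second step, PTGS1 as the constitutive form and PTGS2 as the form that cells induce. PTGS1 (100034087) had 14.2, 6.47, 12.7 and 9.54 CPM in the cyclic and 26.8, 12.4, 15.1 and 10.5 CPM in the pregnant libraries of mares 1 to 4. It was higher in pregnancy in 4 of 4 mares, but the groups overlapped, since the pregnant level of mare 4 was below the cyclic level of mare 1. Its log2 fold change was 0.56 ± 0.16 (SE; adjusted p = 0.0386, edgeR). Mares 1 and 2 had ratios of 1.89 and 1.90 and mares 3 and 4 of 1.19 and 1.10. The call was the least stable of the 4: PTGS1 had an adjusted p of 0.183 without mare 1, 0.126 without mare 2 and 0.392 in the model without the mare block.

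PTGS2 (791253) was the scarcest of the 10 genes in reads, with 1.93, 2.58, 3.60 and 1.55 CPM in the cyclic and 2.98, 6.19, 2.81 and 5.03 CPM in the pregnant libraries. Mares 1, 2 and 4 had higher values in pregnancy and mare 3 a lower one, and the groups overlapped. The log2 fold change of 0.80 ± 0.32 (SE; 95% interval 0.06 to 1.54) did not pass over all genes (adjusted p = 0.136, edgeR). This interval reaches from almost no change to a 2.92-fold rise. Leaving out 1 mare moved the log2 fold change of PTGS2 between 0.51 (without mare 4, adjusted p = 0.353) and 1.22 (without mare 3, adjusted p = 0.0204), and without mare 2 it was 0.61 (adjusted p = 0.382). The 2 cyclooxygenases did not differ detectably in their response: the ratio of PTGS2 to PTGS1 was higher in pregnancy in 2 mares and lower in 2, with a mean log2 difference of 0.22 ± 0.93 (SD, n = 4; two-sided exact sign-flip permutation test, p = 0.875, also after adjustment over 6 ratios). With 4 mares this test has 16 sign assignments, and 2 of them give its smallest p, so it cannot reach 0.05.

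Among the terminal synthases, the one that makes prostacyclin moved and those that make prostaglandin E2 did not pass. PTGIS (100071412), the prostacyclin synthase, had 48.1, 34.9, 36.6 and 50.1 CPM in the cyclic libraries of mares 1 to 4. In pregnancy it had 76.7, 62.1, 62.5 and 61.8 CPM. Mares 2, 3 and 4 reached almost the same pregnant level from different cyclic levels, and mare 1 stood above them. The log2 fold change was 0.64 ± 0.09 (SE; adjusted p = 0.00229, edgeR). It stayed within 0.57 and 0.76 over 14 other settings of the analysis, and PTGIS was called in each of them.

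PTGES (100034143), the inducible membrane-bound prostaglandin E synthase, had 36.4, 55.3, 39.7 and 45.4 CPM in the cyclic and 41.3, 52.5, 39.9 and 45.5 CPM in the pregnant libraries. Within a mare the values were close to each other, most of all in mares 3 and 4, while mares differed by up to 1.52-fold among the cyclic libraries. The log2 fold change was 0.03 ± 0.07 (SE; adjusted p = 0.846, edgeR). Its 95% interval, -0.14 to 0.19, corresponds to folds of 0.910 to 1.14. In the assembly used for gene names a long noncoding RNA gene overlaps PTGES, and that gene is not among the IDs of the count table. The description of the library kit mentions no strand and the read counter is not given, so whether reads of the 2 genes were told apart is not known.

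PTGES2 (100070332), the second membrane-associated prostaglandin E synthase, had 37.8, 40.0, 37.7 and 34.1 CPM in the cyclic and 41.1, 49.5, 36.9 and 32.5 CPM in the pregnant libraries. It was higher in mares 1 and 2 and lower in mares 3 and 4, and its 95% interval of the log2 fold change was -0.11 to 0.27 (adjusted p = 0.557, edgeR). PTGES3 (100059858), the cytosolic form, which is also the HSP90 co-chaperone p23, had 135, 132, 133 and 139 CPM in the cyclic libraries. In pregnancy it had 154, 168, 166 and 133 CPM, higher in mares 1 to 3 and lower in mare 4. The cyclic libraries differed by no more than 1.05-fold and the pregnant ones by 1.26-fold. Reads that PTGES3 may share with near-identical copies elsewhere in the genome could not be checked, so its level is uncertain. Its log2 fold change was 0.20 ± 0.08 (SE), which did not pass (adjusted p = 0.130, edgeR), and which passed without mare 4 (0.29, adjusted p = 0.0467). PTGES relative to PTGIS was lower in pregnancy in 4 of 4 mares, by a mean log2 difference of -0.61 ± 0.27 (SD, n = 4; the smallest p of the exact sign-flip permutation test; adjusted over 6 ratios, 0.188).

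Breakdown rests on HPGD (100009687), the 15-hydroxyprostaglandin dehydrogenase that begins the inactivation of prostaglandins. It had 3.22, 4.52, 8.38 and 8.61 CPM in the cyclic and 4.87, 5.09, 3.66 and 4.56 CPM in the pregnant libraries. Mares 1 and 2 had higher values in pregnancy, with ratios of 1.49 and 1.12, and mares 3 and 4 lower ones, with ratios of 0.445 and 0.536. The cyclic libraries spread over 2.68-fold (6.18 ± 2.72 CPM, SD, n = 4) and the pregnant ones over 1.39-fold (4.54 ± 0.632 CPM, SD, n = 4). The log2 fold change of -0.39 ± 0.30 (SE; 95% interval -1.11 to 0.32) did not pass (adjusted p = 0.435, edgeR). A fall to 0.464 of the cyclic level and a rise to 1.25 times it both lie within this interval.

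Of the 2 transporters, SLCO2A1 rose, by the largest fold among the 10 genes, and ABCC4 did not pass. SLCO2A1 (100065438), the carrier that takes prostaglandins up into cells and so precedes their breakdown, had 15.9, 17.9, 13.0 and 11.8 CPM in the cyclic libraries of mares 1 to 4. The pregnant libraries had 48.9, 30.8, 38.5 and 24.0 CPM, all above the highest cyclic level. Its log2 fold change was 1.25 ± 0.15 (SE; 95% interval 0.91 to 1.59; adjusted p = 0.00152, edgeR), with ratios of 3.06, 1.72, 2.94 and 2.03. SLCO2A1 was called in each of 14 other settings, with log2 fold changes of 1.12 to 1.40.

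ABCC4 (100050431), the multidrug resistance protein that exports prostaglandins, had 4.89, 5.15, 7.76 and 8.43 CPM in the cyclic and 5.57, 5.93, 8.44 and 8.70 CPM in the pregnant libraries. Mares stood in the same order in both states, with mares 3 and 4 above mares 1 and 2. It was slightly higher in pregnancy in 4 of 4 mares, with ratios of 1.13, 1.15, 1.09 and 1.03, and its log2 fold change of 0.13 ± 0.13 (SE; 95% interval -0.15 to 0.42) did not pass (adjusted p = 0.524, edgeR). SLCO2A1 relative to ABCC4 was higher in 4 of 4 mares, by a mean log2 difference of 1.11 ± 0.41 (SD, n = 4). SLCO2A1 relative to HPGD was also higher in 4 of 4, by 1.57 ± 0.94 (SD, n = 4). Both ratios had the smallest p that the exact permutation test allows, which was 0.188 after adjustment over 6 ratios.

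PTGS2 relative to HPGD was higher in 4 of 4 mares, by log2 differences of 0.02, 1.06, 0.83 and 2.52 in mares 1 to 4 (mean 1.10 ± 1.04, SD, n = 4; smallest p of the exact permutation test, adjusted 0.188). PTGS2 and HPGD were both higher in pregnancy in mares 1 and 2 and both lower in mare 3, and in mare 4 PTGS2 was higher and HPGD lower. PTGES relative to HPGD was higher in 2 mares and lower in 2 (0.36 ± 0.80, SD, n = 4; exact permutation p = 0.5, adjusted 0.6).

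**Figure D2:**
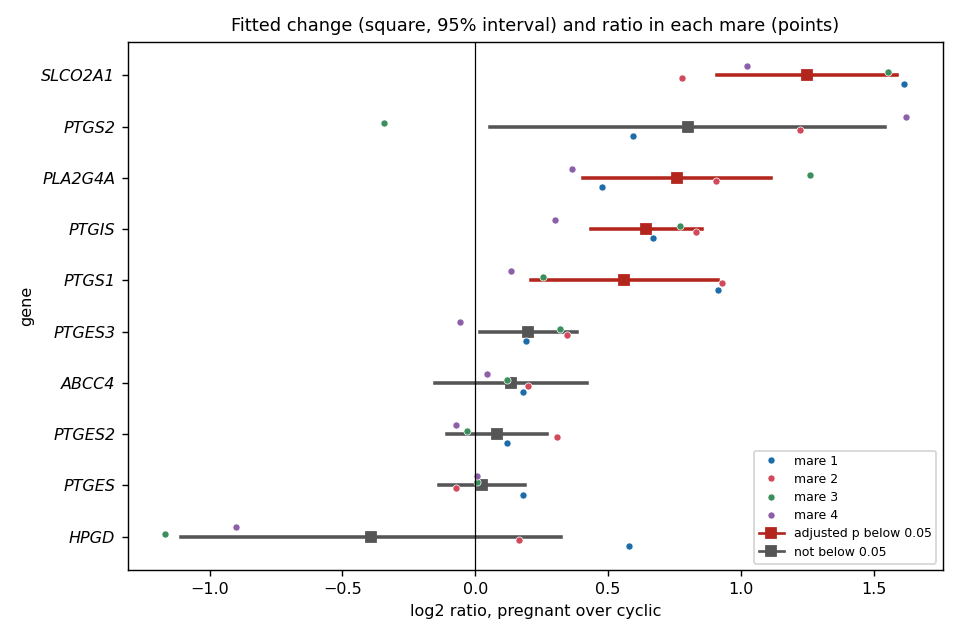
Fitted log2 fold change of each gene (square) with its 95% interval, and the log2 ratio of pregnant over cyclic in each mare (points), on a horizontal axis of log2 ratio. The intervals of PTGES and PTGES2 are narrow and hold 0, that of HPGD is wide, and the points of HPGD lie on both sides of 0.

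The genes divided by how far they followed the animal or the state. Of the variation in log2 CPM (sum of squares over 8 libraries), 94.6% went with the mare for ABCC4 and 93.8% for PTGES, against a median of 54.8% over all genes tested. For PTGES2 and PTGS1 the share was 75.7% and 62.7%. For PLA2G4A it was 4.83%, and the state, pregnant or cyclic, accounted for 77.8%. The state also led for SLCO2A1 (79.5%), PTGIS (74.5%), PTGES3 (51.8%) and PTGS2 (42.3%), where the median over all genes was 15.97%. HPGD followed neither, with a remainder of 60.6%. Differences between mares, tested with the 3 mare terms together, passed for 3 of 10 genes (PTGS1, adjusted p = 0.0262; PTGES, 0.0319; ABCC4, 0.0410; edgeR), where 15.9% of all genes tested passed. Without mare 1, 0 of the 10 passed, and without mare 3, 1 did.

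**Figure D3:**
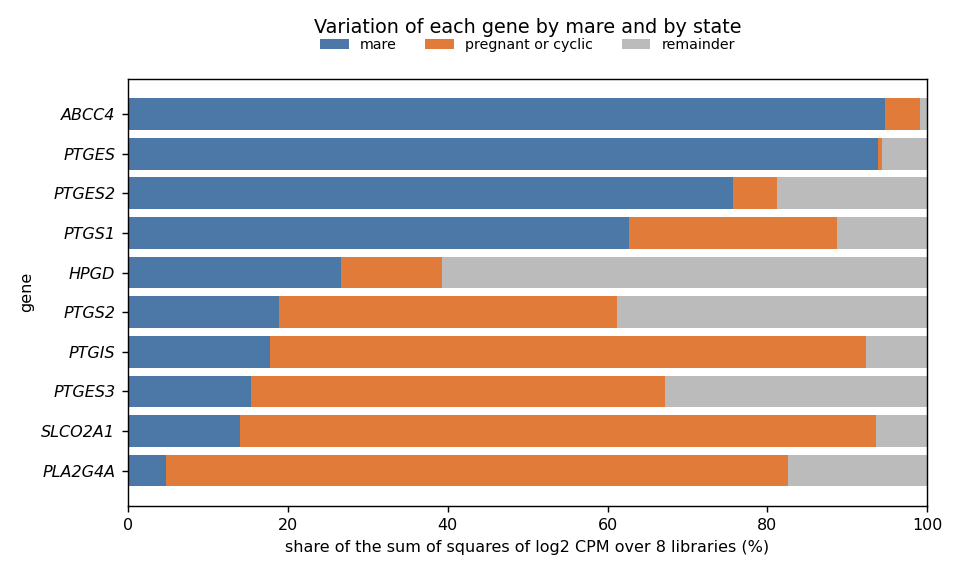
Share of each gene's variation over 8 libraries (horizontal axis, percent of its sum of squares in log2 CPM) that goes with the mare, with the state and with neither, for each gene. ABCC4 and PTGES are nearly all mare, PLA2G4A, SLCO2A1 and PTGIS mostly state, and HPGD mostly remainder.

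Other genes of the pathway were counted by role, and each count is to be read against the 16.7% of all genes that changed (8.53% rose and 8.19% fell). Of 19 other genes tested on a list of arachidonic acid release, 3 rose, 2 fell and 14 did not pass (26.3% changed). Their median log2 fold change was 0.05. That list also holds genes that activate fatty acids or put arachidonate back into phospholipids. The 2 that fell, ACSL3 and LPCAT3, are of this kind, so the count and the median are not those of release alone. Without the mare block 1 of the 19 was called, and 3 were without mare 3 or without mare 4. PLA2G4F, another cytosolic phospholipase A2, rose from 66.9 ± 14.4 to 105 ± 35.0 CPM (adjusted p = 0.00156), MGLL, the monoacylglycerol lipase, rose 1.89-fold (adjusted p = 0.0333), and PLA2G6, the calcium-independent phospholipase A2, rose 1.22-fold (adjusted p = 0.0437). ACSL3, which activates fatty acids with coenzyme A, fell from 164 ± 40.4 to 91.3 ± 27.2 CPM (adjusted p = 2.91e-04). LPCAT3, which puts arachidonate back into phospholipids, fell from 90.0 ± 12.6 to 60.3 ± 7.65 CPM (adjusted p = 0.00102). The secreted phospholipase PLA2G2A averaged 878 CPM in cyclic and 952 CPM in pregnant libraries (adjusted p = 0.958). All values with ± are mean ± SD of 4 mares, and adjusted p-values are from edgeR.

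Of 8 other genes tested on a list of terminal synthases, 1 rose and 7 did not pass (12.5% changed), and the median log2 fold change was -0.02. That list also holds carbonyl reductases, whose part in making prostaglandins was not tested here, and CBR1 could not be matched. The riser was the carbonyl reductase CBR3, from 1.00 ± 0.305 to 2.15 ± 0.503 CPM (adjusted p = 0.0174), whose call was lost in 5 of 14 other settings. AKR1B1, an aldo-keto reductase that can make prostaglandin F2 alpha, averaged 59.7 CPM in cyclic and 61.7 CPM in pregnant libraries (adjusted p = 0.745), and PTGDS, a prostaglandin D synthase, had 8.66 and 8.38 CPM (adjusted p = 0.785).

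Of 7 other breakdown genes, 1 rose and 6 did not pass (14.3% changed). PTGR1, a reductase that acts on the keto products of HPGD, rose from 19.5 ± 4.98 to 47.8 ± 15.9 CPM (adjusted p = 0.00632, edgeR). Its log2 fold change was 1.26, with an SE of 0.18, and it was higher in 4 of 4 mares. PTGR2, of the same family, had 16.9 and 14.1 CPM and was lower in 4 of 4 mares (adjusted p = 0.101). PTGR3 had 144 and 138 CPM (adjusted p = 0.708).

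Of 12 other carriers that can move prostanoids, 4 rose and 8 did not pass (33.3% changed), and 10 had a fold change above 1, with a median log2 fold change of 0.42. The efflux pumps ABCC1, from 51.2 ± 2.58 to 83.4 ± 14.1 CPM (adjusted p = 0.00271), and ABCG2, from 30.2 ± 4.63 to 48.4 ± 9.83 CPM (adjusted p = 0.00216), rose beside the organic anion carriers SLCO2B1 (1.42-fold) and SLCO3A1 (1.36-fold). ABCC1 was called in 14 of 14 other settings and ABCG2 in 13, while SLCO2B1 and SLCO3A1 were called in 10 each. Without mare 1, or without mare 4, 2 of these carriers were called, and 1 was called without the mare block.

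Of 9 genes tested on a list of receptors, 1 rose, 1 fell and 7 did not pass (22.2% changed). Among the 9 were PTGFRN, which is not itself a prostanoid receptor, and the nuclear receptors PPARD and PPARG. PTGER3, at 0.995 ± 0.513 and 2.76 ± 1.82 CPM, was 2.61-fold higher in pregnancy, in 4 of 4 mares, and narrowly missed the threshold (adjusted p = 0.0512, edgeR). PTGER4, a receptor of prostaglandin E2, rose from 6.26 ± 1.07 to 14.2 ± 3.77 CPM (adjusted p = 0.00294), and PTGFR, through which prostaglandin F2 alpha acts, fell from 19.2 ± 5.87 to 7.01 ± 2.27 CPM (adjusted p = 1.37e-04). The prostacyclin receptor PTGIR was too scarce to be tested, with means of 0.220 and 0.267 CPM.

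Leukotriene and lipoxygenase genes, the other routes of arachidonic acid, held 3 risers among 11 tested, and 8 did not pass (27.3% changed): ALOXE3, an epidermis-type lipoxygenase (1.47-fold), LTA4H, the leukotriene A4 hydrolase (1.33-fold), and GGT5, which cleaves leukotriene C4 (1.33-fold; called in 8 of 14 other settings). Without the mare block 0 of the 11 were called (adjusted p = 0.112 for ALOXE3 and 0.216 for LTA4H). Of 21 genes known to act on PTGS2 or on phospholipase A2, 4 rose and 17 did not pass (19% changed), with a median log2 fold change of 0.28. They were ANXA2, an annexin (1.36-fold), IL1R1, the receptor of interleukin 1 (1.42-fold), MAPK3, a kinase that activates PLA2G4A (1.21-fold), and CAV1, the caveolin of plasma membrane pits (1.53-fold). Without mare 1, 1 of the 21 was called, and without the mare block 0 were.

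**Figure D4:**
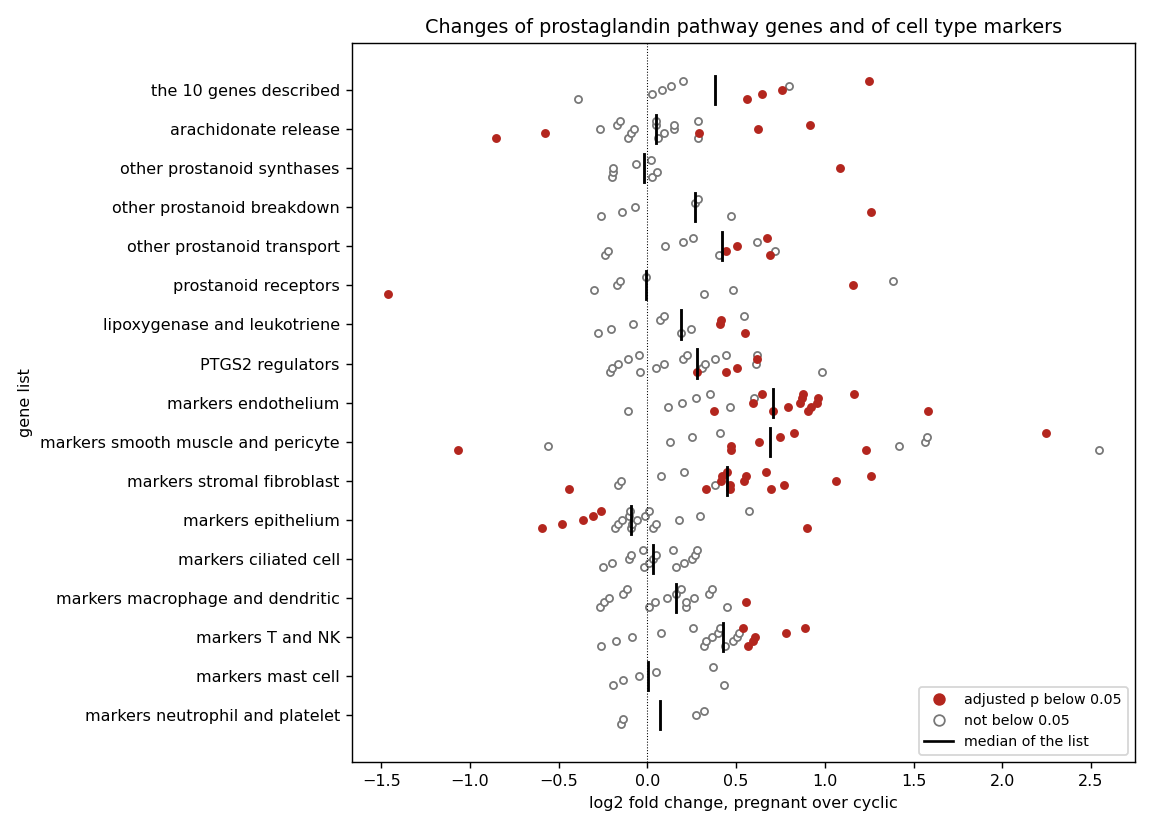
Log2 fold change of each tested gene (points, filled where the adjusted p is below 0.05) and the median (vertical bar) for the 10 genes, other lists of the pathway and lists of cell type markers. Endothelial, smooth muscle and stromal markers lie mostly to the right of 0, with medians of 0.71, 0.69 and 0.45, and epithelial markers have a median of -0.09.

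Markers of several cell types moved with the state. Each count of markers is to be read against the 16.7% of all genes that changed (8.53% rose and 8.19% fell). Of the endothelial markers 66.7% changed, of the smooth muscle and pericyte markers 50%, of the stromal markers 73.7% and of the epithelial markers 28.6%. SLCO2A1 and PTGIS are known from vascular endothelium, and PTGIS also from smooth muscle and fibroblasts. Which cell types held SLCO2A1 or PTGIS in these biopsies was not determined. Of 21 endothelial markers tested, 14 rose and 7 did not pass. Their summed level was 1307 to 2000 CPM in the cyclic and 1832 to 2398 CPM in the pregnant libraries. SOX17 (372 and 345 CPM) and ROBO4 (361 and 369 CPM) weighed heavily in this sum and did not pass (adjusted p = 0.368 and 0.438, edgeR). Whether SOX17 and ROBO4 were limited to endothelium in these biopsies was not tested. ROBO4 was highest in mare 4, with 786 CPM in the cyclic and 717 CPM in the pregnant library, against 176 to 287 CPM in the other libraries. CLDN5, an endothelial tight junction protein, rose 3.00-fold and the endothelial cadherin CDH5 1.83-fold. Of 16 smooth muscle and pericyte markers, 7 rose, 1 fell and 8 did not pass, with sums of 555 to 856 and 806 to 1210 CPM. MCAM (2.35-fold) and RGS5 (1.55-fold) led by p. Among the 8 were ACTA2 (2.96-fold, adjusted p = 0.116, edgeR), TAGLN (2.98-fold, 0.0567) and MYH11 (2.68-fold, 0.2365). The cyclic library of mare 4 had 55.0 CPM of ACTA2 and 122 CPM of MYH11. The other cyclic libraries had 15.1 to 22.2 and 22.8 to 39.4 CPM. Of 19 stromal fibroblast markers, 13 rose, among them DPT (2.09-fold) and MFAP4 (2.40-fold), and 1 fell, FAP (1.36-fold). COL1A1 and COL1A2, which weighed heavily in the stromal sum, did not pass (adjusted p = 0.658 and 0.486, edgeR). Of 21 epithelial markers, 1 rose and 5 fell, with KRT7 at 235 ± 62.3 and 154 ± 33.0 CPM and PROM1 at 96.6 ± 24.9 and 76.0 ± 21.9 CPM. Without the mare block 11 endothelial, 6 smooth muscle, 3 stromal and 0 epithelial markers were called in either direction. Without mare 1, 9 stromal and 3 epithelial markers were called, and 3 epithelial markers also without mare 2 or without mare 4; without mare 4, 12 smooth muscle markers were.

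Mare by mare, the median log2 ratio of the endothelial markers was 0.74, 0.69, 0.58 and 0.47. SLCO2A1 had a larger log2 ratio than this median in each mare, with 1.61, 0.78, 1.55 and 1.02. Of the 21 single markers, 1, 10, 0 and 2 had a larger ratio than SLCO2A1 in mares 1 to 4, and 11, 9, 8 and 16 a larger ratio than PTGIS. PTGIS, with 0.67, 0.83, 0.77 and 0.30, was above it in mares 2 and 3 and below it in mares 1 and 4. The median of the smooth muscle and pericyte markers was 0.91, 0.58, 0.97 and 0.18, and that of the stromal markers 0.69, 0.36, 0.37 and 0.37. The ratios of PLA2G4A, at 0.48, 0.91, 1.26 and 0.37, were below the endothelial median in mares 1 and 4, and those of PTGS1, at 0.92, 0.93, 0.25 and 0.13, in mares 3 and 4. The part of these cell types in the rises of the 4 genes was not tested.

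Among immune cells, 1 of 17 macrophage and dendritic markers rose and 16 did not pass (5.88% changed, against 16.7% of all genes). Their sums were 253 to 355 CPM in the cyclic and 285 to 359 CPM in the pregnant libraries, and the riser was CD14 (1.47-fold). T and NK cell markers rose in 6 of 20 cases (30% changed), CCL5 (1.48-fold) and CD3D (1.53-fold) among them, and sums were 373 to 421 and 313 to 456 CPM. Most of this sum was NCAM1 (283 ± 29.4 and 252 ± 40.7 CPM, adjusted p = 0.391), and the other 19 markers summed to 101 to 160 and 120 to 188 CPM. These calls fell to 2 without mare 1 or mare 4, to 1 without mare 2 and to 0 without the mare block. No mast cell marker (0 of 6), ciliated cell marker (0 of 15) or neutrophil and platelet marker (0 of 4) was called by edgeR, DESeq2 or limma-voom. At an unadjusted p below 0.05 there were 0, 2 and 0 of them. GATA2, a transcription factor that is not limited to mast cells and had the most counts on that list, had 318 ± 27.7 and 289 ± 20.6 CPM, and the ciliated cell factor FOXJ1 98.6 ± 38.7 and 105 ± 27.4 CPM. Platelets are a known source of PTGS1, and the platelet integrin ITGA2B had 29.7 ± 4.30 and 26.6 ± 1.86 CPM (adjusted p = 0.282). The platelet gene PPBP was at 0 in every library.

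**Figure D5:**
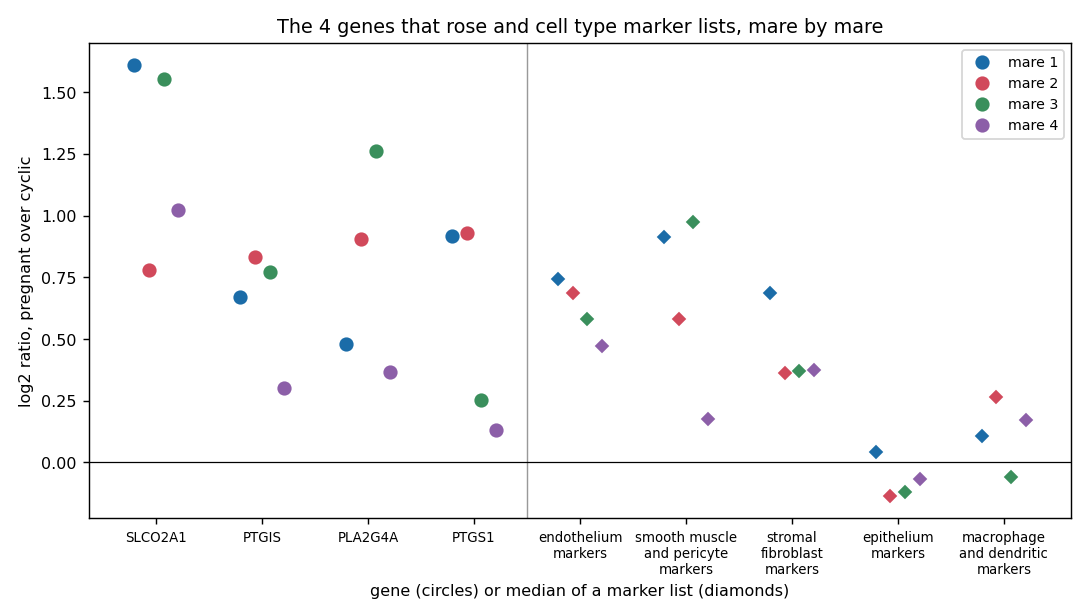
Log2 ratio of pregnant over cyclic (vertical axis) in each mare for SLCO2A1, PTGIS, PLA2G4A and PTGS1 (circles) and the median log2 ratio of 5 marker lists (diamonds). SLCO2A1 lies above the endothelial median of the same mare in 4 of 4 mares, though single endothelial markers were higher still in mares 1, 2 and 4, while PTGS1 is low in mares 3 and 4.

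Genes nearest in pattern were sought among 10755 named genes with a mean of at least 5 CPM, by the mean absolute difference of log2 CPM centred on each gene's mean over the 8 libraries. For SLCO2A1 these were ADGRG6, an adhesion receptor (0.150), PHGDH, the first enzyme of serine synthesis (0.185), and ADSS1, an adenylosuccinate synthase (0.192), against a median distance of 0.636. For PTGIS they were ARHGAP25 (0.0636), the transcription factor MEF2C (0.0800) and CYTH3 (0.0834), against a median of 0.358. PLA2G4A lay nearest to the tyrosine kinase FYN (0.0812), HOXD9 (0.103) and RAB7B (0.104), with a median of 0.404. PTGS1 lay nearest to SUSD4 (0.142), FAM13A (0.155) and GGT5 (0.180), with a median of 0.447.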

How the data were processed

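Messenger RNA was sequenced from poly(A) libraries of 8 biopsies, with a kit whose description in the labels marks no strand. The authors deposited raw read counts per gene for 24942 NCBI Gene IDs. Per the submitters' processing notes, Trimmomatic 0.32.2 and HISAT2 2.0.3 were used. For build, annotation and counter: not given in the sources used here. A second deposited file is a scaled signal table of 14037 genes by the authors. Its values equal TMM-scaled CPM of the counts (100% within a relative tolerance of 1e-06), and it was used for this check only. Columns of values left unused numbered 0.

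Symbols came from a RefSeq gene table of the horse assembly TB-T2T, matched by Gene ID (21420 IDs, 85.9%). Genes were kept by filterByExpr (minimum count 10) and scaled by TMM in edgeR 4.0.16 (R 4.3.3). The quasi-likelihood F-test (robust) took the mare as a block, because both biopsies came from each mare (design text). Same-mare libraries deviated together from the means of their groups (correlations 0.54, 0.38, 0.48 and 0.47 for mares 1 to 4). Between different mares the highest value was -0.02, and centring on the group means itself pushes these values below 0 when same-mare values are positive. "Rose", "fell" and "called" mean an adjusted p under 0.05. The standard error is the log2 fold change divided by the square root of F, and intervals are 95%. Log2 CPM used a prior count of 2. Within a group, every pair of libraries differed by more than sampling noise. Tests were also run on simulated data, where the share of false calls was somewhat above the adjusted p threshold of 0.05. After a first fit had been seen, the filter was changed from the blocked design to the 2 groups, and thinning from resampling to binomial draws; 4 of the 10 genes were called with either filter. Alternatives used DESeq2 1.42.0 and limma 3.58.1 among others.

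The 10 genes, the lists and the rule for named genes were chosen with earlier results of these data known. Named were the 10 genes; up to 4 called genes of each pathway list by p, or the 2 most abundant; up to 2 of each marker list; and the 3 nearest in pattern to each gene called. PLA2G6, PLA2G2A, AKR1B1, PTGDS, PTGR2, PTGR3, PTGIR, PTGER3, PTGFRN, PPARD, PPARG, SOX17, ROBO4, NCAM1 and PPBP were named after their values were seen. The same holds for COL1A1, COL1A2, FAP, ACTA2, TAGLN and MYH11.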

Additional observations from a re-analysis of the deposited data

Results flagged for a closer look

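A library far from the other 3 of its group was seen in 7 of 110 groups tested. For a single group, chance gives this in about 1 in 20. Many of the genes were picked by their calls or by a shared pattern over the same libraries. The groups are therefore not independent, and 7 of 110 is a description only. Among the 10 genes a library stood apart for PTGIS, where the pregnant library of mare 1 had 76.7 CPM and the others 61.8 to 62.5 CPM. The same library stood apart for PTGER4 (19.9 CPM against 12.0 to 12.6), RGS5 (93.9 CPM against 84.2 to 84.7), SUSD4 (25.4 CPM against 11.2 to 13.2) and its total counts (9.81 M against 16.4 to 16.7 M). Without mare 1 the log2 fold change of PTGIS was 0.63 (adjusted p = 0.0186, edgeR). In the cyclic group, MFAP4 had 34.4 CPM in mare 3 against 16.5 to 17.1, and PHGDH had 18.7 CPM in mare 4 against 29.5 to 31.0.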

How the results depend on the processing

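Over 14 alternatives the number of the 10 genes called was 2 to 5, all of them higher in pregnancy, and 0 were called lower. Leaving out 1 mare gave 2 to 5. SLCO2A1 and PTGIS were called in all 14, PLA2G4A in 13 and PTGS1 in 9; PTGS1 was lost without mare 1, without mare 2, without the replicate block, with the robust setting off (adjusted p = 0.0529) and after thinning to the shallowest library (0.0696). PTGS2 and PTGES3 were each called in 1, without mare 3 and without mare 4. Without the mare as replicate block, 3 of the 10 genes and 389 of all genes were called, against 4 and 2565, and leaving out a mare gave 1266 (mare 1) to 2057 (mare 4) genes. With library totals in place of TMM, 1416 genes rose and 864 fell, against 1309 and 1256. Directions turned, without a call, when a mare was left out: PTGES had log2 fold changes of -0.0219 (without mare 1) to 0.0516, PTGES2 of -0.00543 (without mare 2) to 0.133, and the ciliated cell marker FOXJ1 of -0.00416 (without mare 2) to 0.342. Differences between mares were called for 0 to 2 of the 10 genes when a mare was left out, where fewer mares are compared, and for 2 with library totals. The call of the carbonyl reductase CBR3 was lost without mare 1, without mare 4, without the replicate block, in DESeq2 and after thinning. In the block model both libraries of a mare were left out together. Where the cause of a change is not named, the cause was not tested. PTGS2 and HPGD had as few as 25 and 49 counts in a library. With 1 biopsy per mare and state, the spread within a uterus was not measured.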
